A study of Rattus norvegicus with 10 samples.

Results

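The genes described are 31 genes of cholesterol and fatty acid synthesis and of its control by the sterol regulatory element-binding proteins (SREBPs), chosen by name from the known pathway. The choice was made with earlier results of these data known. All 31 were found, once each, among the 39784 gene names of the deposited RNA-seq tables. Of them, 19 form the sterol arm, from acetoacetyl-CoA to cholesterol with the branch enzyme Ggps1, 5 form the fatty acid arm and 5 are regulators. Stard4 (sterol transport) and Aacs (acetoacetyl-CoA supply) are given singly.

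Wild-type cardiomyocytes of newborn rats were sequenced for RNA after overexpression of YAP5SA or of YAP5SA-S94A, from the agents labelled Ad-Xon-YAP5SA and Ad-Xon-YAP5SA-S94A, with 2 libraries per form. YAP is a transcriptional coactivator restrained by the Hippo pathway. YAP5SA is an activated form with serine-to-alanine changes at its inhibitory sites, and YAP5SA-S94A carries a further change that disrupts binding to TEAD factors. Both groups were grown in M199 medium with fetal bovine serum, their age in days is not given in the sources used here, and the labels call the libraries biological replicates without naming separate isolations. No library of GFP or untreated cells was used here, so a difference does not show which form departed from the untreated state. The series also holds 6 CUT&RUN samples, which are not analysed here.

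Cholesterol is built from acetyl-CoA through mevalonate, farnesyl diphosphate, squalene and lanosterol, and long-chain fatty acids are built from the same acetyl-CoA through malonyl-CoA. SREBP2, encoded by Srebf2, is best known for driving sterol genes, and the SREBP1 forms encoded by Srebf1 for driving fatty acid genes. The precursors sit in the endoplasmic reticulum with the escort SCAP. INSIG proteins hold the complex there when sterol is plentiful, and it moves to the Golgi to be cleaved when sterol is scarce. Messenger levels do not measure that cleavage.

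Levels are TPM, which correct for transcript length and add up to one fixed total per library. Each log2 fold change is the mean log2(TPM + 1) of YAP5SA less that of YAP5SA-S94A. The added 1 shrinks the change of genes with low values. A gene is said to have risen or fallen when its limma p, adjusted over all 13420 tested genes, was under 0.05. With 2 libraries a group an exact permutation test cannot give a two-sided p below 0.333, and p-values measure only the spread between these libraries. Depth was similar, with 5.10 and 4.02 gigabases of aligned sequence for YAP5SA, against 5.02 and 4.97 gigabases for YAP5SA-S94A. The TEAD target Ccn1 stood at 522 and 438 TPM in YAP5SA libraries, against 39.9 and 36.1 TPM in YAP5SA-S94A libraries.

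Of the 31 members, all of them tested, 22 rose and 1 fell in YAP5SA. Over all tested genes 17.4% rose and 15.5% fell (32.9% in either direction). The members' median log2 fold change was 1.09, where that of all tested genes was 0.0001. Every YAP5SA library was above every YAP5SA-S94A library for 25 members and below for 2, orders seen for 34.5% and 33.8% of tested genes (68.2% together). Of the 14 alternative settings, each that kept all 4 libraries called these 22 members higher, and with replicate number as a block also Scap. The others left out 1 library in turn, so that its group had 1 sample. In these the lowest log2 fold change among the 22 was 0.67 (Acly, without YAP5SA replicate 1). In the sterol arm 14 of 19 members rose and 0 fell. In the fatty acid arm 4 of 5 rose and 0 fell, while of the regulators 2 rose and 1 fell.

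**Figure D1:**
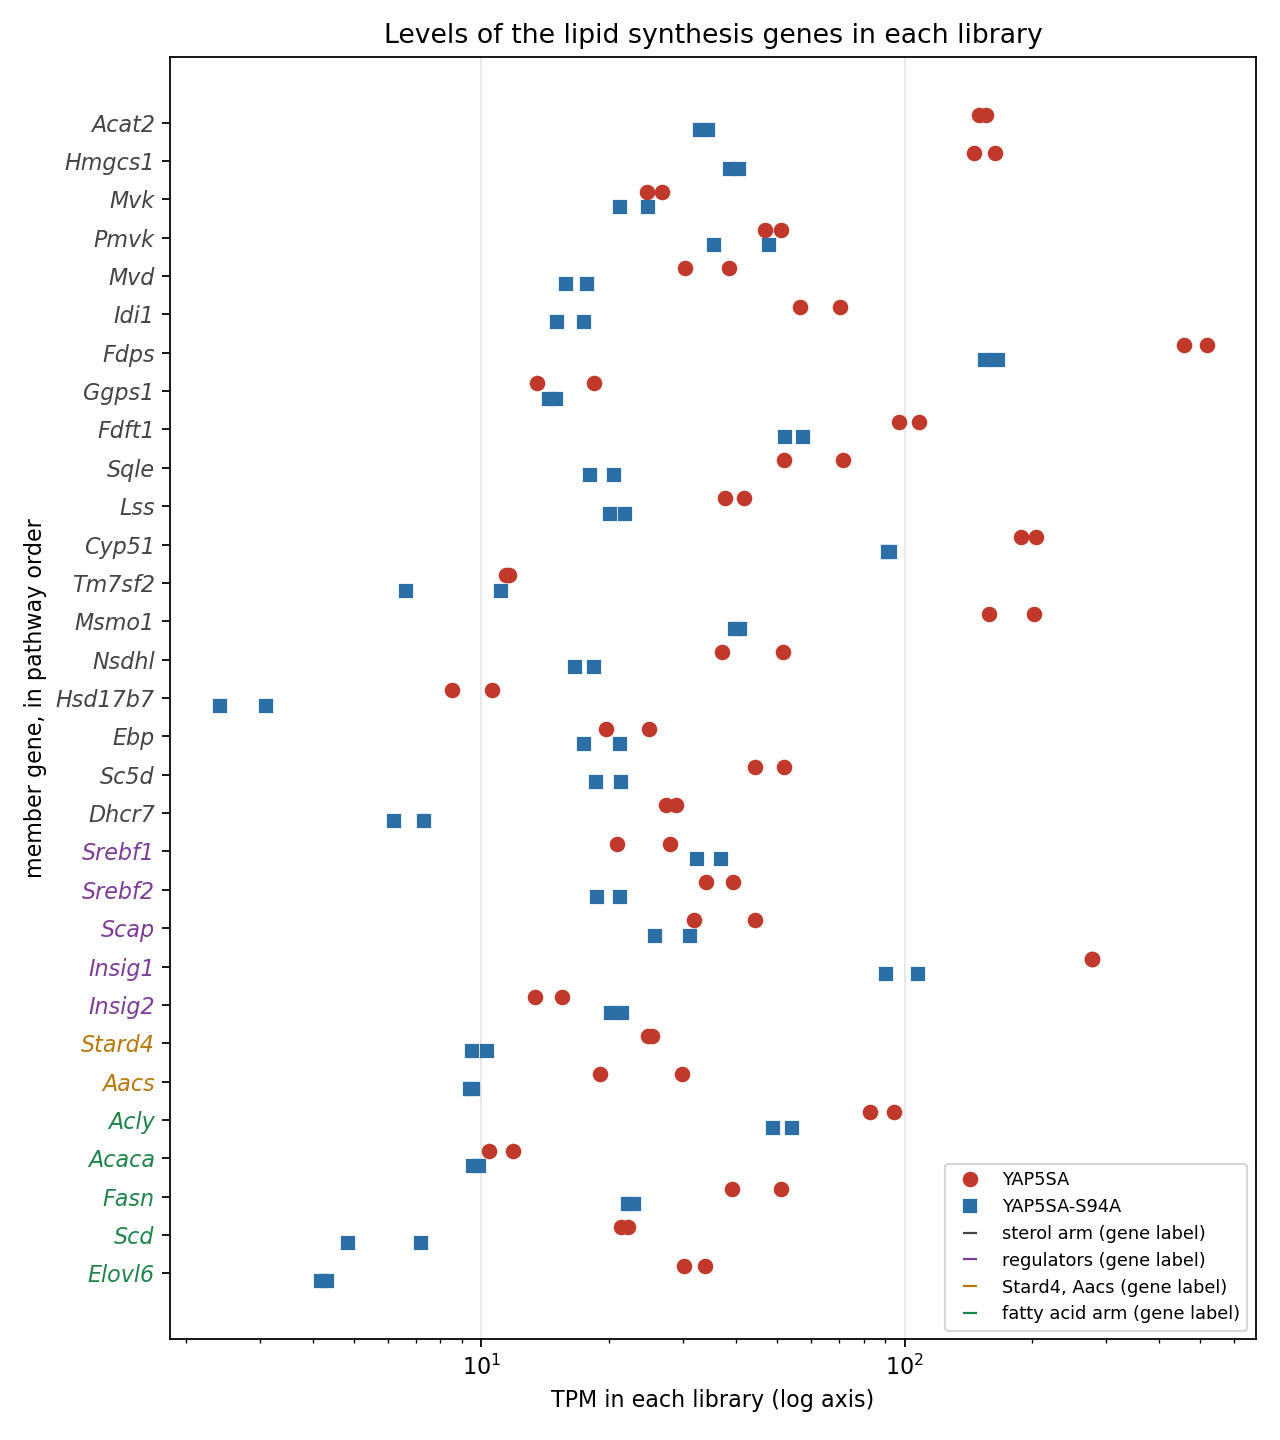
TPM of each member (rows, in pathway order) on a log axis, with circles for the 2 YAP5SA libraries and squares for the 2 YAP5SA-S94A libraries. Circles lie right of both squares for 25 members, left of both for Srebf1 and Insig2, and among them for Mvk, Pmvk, Ggps1 and Ebp.

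The first steps of the sterol arm, which make mevalonate and turn it into farnesyl diphosphate, held some of the largest differences. Acat2, the cytosolic thiolase that joins 2 acetyl-CoA units (chromosome 1, 47695833 to 47713879, rn7), stood at 155 and 150.2 TPM in YAP5SA libraries, against 32.8 and 34.3 TPM in YAP5SA-S94A libraries. Its mean level was thus 4.55-fold higher in YAP5SA cells, and the groups were far apart (log2 fold change 2.15, SE 0.10, limma adjusted p = 2.40e-05). Hmgcs1, the cytosolic HMG-CoA synthase of the next step (chromosome 2, 51649368 to 51667100), stood at 146 and 164 TPM in YAP5SA libraries, against 40.6 and 38.6 TPM in YAP5SA-S94A libraries. Again no library of one group came near the other (log2 fold change 1.94, SE 0.11, limma adjusted p = 4.15e-05).

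The kinases that follow did not pass the test. Mvk, mevalonate kinase, stood at 26.8 and 24.6 TPM in YAP5SA libraries, against 24.8 and 21.3 TPM in YAP5SA-S94A libraries, and these ranges overlapped. For Pmvk, phosphomevalonate kinase, the levels were 51.0 and 46.9 TPM in YAP5SA libraries, against 47.8 and 35.5 TPM in YAP5SA-S94A libraries, with overlap as well. Their log2 fold changes were 0.15 and 0.24 (limma adjusted p = 0.425 and 0.280 in that order).

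Downstream of the kinases the difference was present again. Mvd, the decarboxylase that yields isopentenyl diphosphate, stood at 38.4 and 30.3 TPM in YAP5SA libraries, against 15.9 and 17.7 TPM in YAP5SA-S94A libraries (2.05-fold). Idi1, which isomerizes that unit, reached 56.5 and 70.4 TPM in YAP5SA libraries, against 17.5 and 15.1 TPM in YAP5SA-S94A libraries (3.90-fold). Fdps, farnesyl diphosphate synthase, was the most abundant member, at 458 and 517 TPM in YAP5SA libraries, against 166 and 155 TPM in YAP5SA-S94A libraries (3.04-fold). In these 3 genes, which all rose, both YAP5SA libraries lay above both of the others, an order seen for 34.5% of tested genes. Idi1 overlaps the oppositely oriented Wdr37 by 100 bases. The sources used here do not state strand-aware counting, so its level is uncertain to that extent. Wdr37 stood at 16.8 and 19.1 TPM in YAP5SA libraries, against 20.1 and 17.4 TPM in YAP5SA-S94A libraries.

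At the branch point, Ggps1 makes geranylgeranyl diphosphate for protein prenylation rather than sterol. It stood at 13.5 and 18.4 TPM in YAP5SA libraries, against 14.4 and 15.0 TPM in YAP5SA-S94A libraries. The YAP5SA libraries lay on either side of the others (log2 fold change 0.10, limma adjusted p = 0.708), and without YAP5SA replicate 2 the sign turned to −0.11.

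Promoters are shown for 3 sterol genes that rose by about the same amount, for Insig1, which also rose, and for Mvk, which did not pass the test. Each is the 250 bases before the RefSeq start site, read 5′ to 3′ along the gene from the GRCr8 build, with the NF-Y motif CCAAT in capitals on either strand (ATTGG where it lies on the other strand).
Hmgcs1, chr2:53382054-53382303, plus strand: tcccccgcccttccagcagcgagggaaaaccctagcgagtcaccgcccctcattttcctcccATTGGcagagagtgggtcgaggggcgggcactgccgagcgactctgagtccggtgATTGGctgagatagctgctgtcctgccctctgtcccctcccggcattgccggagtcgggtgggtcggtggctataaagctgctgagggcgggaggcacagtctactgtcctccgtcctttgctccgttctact
Msmo1, chr16:29746863-29747112, plus strand: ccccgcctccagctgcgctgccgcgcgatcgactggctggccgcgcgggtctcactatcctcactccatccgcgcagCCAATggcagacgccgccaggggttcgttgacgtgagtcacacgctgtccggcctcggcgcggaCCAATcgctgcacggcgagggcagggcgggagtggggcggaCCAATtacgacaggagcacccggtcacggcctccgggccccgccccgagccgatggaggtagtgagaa
Idi1, chr17:66547525-66547774, minus strand: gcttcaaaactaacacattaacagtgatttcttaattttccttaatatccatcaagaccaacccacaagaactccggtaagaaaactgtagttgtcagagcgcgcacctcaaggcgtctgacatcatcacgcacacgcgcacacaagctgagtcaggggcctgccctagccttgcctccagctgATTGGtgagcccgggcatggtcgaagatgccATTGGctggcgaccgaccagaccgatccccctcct
Insig1, chr4:8057770-8058019, minus strand: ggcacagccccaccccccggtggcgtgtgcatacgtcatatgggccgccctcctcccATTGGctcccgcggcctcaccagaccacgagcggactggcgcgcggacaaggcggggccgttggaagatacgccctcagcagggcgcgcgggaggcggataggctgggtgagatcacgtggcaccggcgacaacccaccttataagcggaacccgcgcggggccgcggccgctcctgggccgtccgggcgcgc
Mvk, chr12:47819504-47819753, minus strand: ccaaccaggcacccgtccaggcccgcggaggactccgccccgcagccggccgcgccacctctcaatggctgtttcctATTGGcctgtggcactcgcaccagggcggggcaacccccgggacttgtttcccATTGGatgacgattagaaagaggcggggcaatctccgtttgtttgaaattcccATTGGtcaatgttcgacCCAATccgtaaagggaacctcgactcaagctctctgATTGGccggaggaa

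These motifs did not separate the genes that rose from Mvk, since Mvk held 5 CCAAT matches, Msmo1 3, Hmgcs1 and Idi1 2 each and Insig1 1. The search covered 250 bases before to 50 after the start, with 1 start per gene symbol, on both strands. It looked for CCAAT, the SREBP motifs TCACNCCAC and ATCACGTGA and the TEAD motif GGAATG, none of which contains another. Of the 19 sterol genes 16 had a promoter in the table, without Pmvk, Fdft1 and Sqle. CCAAT was in 13 of those 16, and in 37.7% of all 27457 promoters. The sterol promoters without it were those of Acat2, Cyp51 and Dhcr7, which all rose. Mvk, Ggps1, Tm7sf2 and Ebp, which were not called, all held it. TCACNCCAC was in 0 of the 16 and in 1.13% of all promoters, ATCACGTGA in 0 and in 0.277%, and GGAATG in 0 and in 13.9%. The 2 SREBP strings are so rare among all promoters that 0 of 16 says little. A match is only a match of letters. With N as any letter, no mismatch was allowed, so the absence of a match concerns these exact strings in these windows alone. It does not show that a gene lacks a binding site.

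From squalene to cholesterol, 9 of 11 enzymes rose and 0 fell, where 17.4% and 15.5% of all tested genes did. Fdft1, squalene synthase and the first enzyme committed to sterol, stood at 108 and 96.8 TPM in YAP5SA libraries, against 52.1 and 57.5 TPM in YAP5SA-S94A libraries (1.87-fold). Sqle, the oxygen-dependent squalene epoxidase, reached 51.9 and 71.4 TPM in YAP5SA libraries, against 18.1 and 20.6 TPM in YAP5SA-S94A libraries (3.19-fold). Lss, which closes the rings to lanosterol, had 41.6 and 37.6 TPM in YAP5SA libraries, against 21.9 and 20.2 TPM in YAP5SA-S94A libraries (1.88-fold). For each of them the lower YAP5SA library still lay well above the higher YAP5SA-S94A library.

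The enzymes that strip methyl groups from lanosterol rose by 2.14-fold to 4.47-fold. Cyp51, the lanosterol demethylase, was at 189 and 204 TPM in YAP5SA libraries, against 91.3 and 92.3 TPM in YAP5SA-S94A libraries (2.14-fold). Msmo1, the methylsterol monooxygenase (chromosome 16, 24980680 to 24997927), had 158 and 202 TPM in YAP5SA libraries, against 40.9 and 39.7 TPM in YAP5SA-S94A libraries. Its log2 fold change of 2.12 (SE 0.13, limma adjusted p = 6.07e-05) was next to that of Acat2 in size within the sterol arm. Nsdhl, the dehydrogenase of the same demethylation complex, stood at 36.9 and 51.6 TPM in YAP5SA libraries, against 18.4 and 16.7 TPM in YAP5SA-S94A libraries. Hsd17b7, its ketoreductase, was the lowest of the sterol genes, at 10.6 and 8.54 TPM in YAP5SA libraries, against 2.41 and 3.10 TPM in YAP5SA-S94A libraries. In each of the 4 both YAP5SA libraries lay above both of the others, an order seen for 34.5% of tested genes.

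The reductase and isomerase between these steps were not called. Tm7sf2, a sterol reductase, was at 11.4 and 11.6 TPM in YAP5SA libraries, against 11.1 and 6.64 TPM in YAP5SA-S94A libraries (limma adjusted p = 0.251). Its groups did not overlap, but the YAP5SA-S94A libraries lay farther from each other than the nearest libraries of the 2 groups. Ebp, the sterol isomerase, had 19.6 and 24.9 TPM in YAP5SA libraries, against 17.5 and 21.3 TPM in YAP5SA-S94A libraries, with overlap (limma adjusted p = 0.430). The last steps rose. Sc5d, a sterol desaturase, stood at 44.3 and 52.0 TPM in YAP5SA libraries, against 18.7 and 21.4 TPM in YAP5SA-S94A libraries. Dhcr7, the reductase of the final step (chromosome 1, 199015081 to 199031055), was at 28.9 and 27.3 TPM in YAP5SA libraries, against 6.20 and 7.34 TPM in YAP5SA-S94A libraries. Both of these end-of-pathway genes had groups that stood clear of each other, and for Dhcr7 the log2 fold change was 1.91 (SE 0.15, limma adjusted p = 1.49e-04).

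In the fatty acid arm the late enzymes differed most. Elovl6, which lengthens palmitate (chromosome 2, 218063682 to 218174767), stood at 30.1 and 33.8 TPM in YAP5SA libraries, against 4.31 and 4.17 TPM in YAP5SA-S94A libraries. This 7.54-fold difference was the largest of all 31 members (log2 fold change 2.65, SE 0.15, limma adjusted p = 4.28e-05). Scd, a stearoyl-CoA desaturase that makes monounsaturated fatty acids (chromosome 1, 243269745 to 243282878), was at 21.4 and 22.2 TPM in YAP5SA libraries, against 7.18 and 4.85 TPM in YAP5SA-S94A libraries. It rose by 1.72 on the log2 scale (SE 0.19, limma adjusted p = 7.53e-04), and the groups did not overlap. Its paralog Scd2 was far more abundant, at 490.2 and 475 TPM in YAP5SA libraries, against 275 and 290.2 TPM in YAP5SA-S94A libraries. The split of reads between such close paralogs is uncertain.

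The early enzymes of the fatty acid arm differed less. Fasn, fatty acid synthase, was at 51.2 and 39.1 TPM in YAP5SA libraries, against 23.0 and 22.2 TPM in YAP5SA-S94A libraries (log2 fold change 0.95, SE 0.15, limma adjusted p = 0.00330). Acly, ATP citrate lyase, which supplies cytosolic acetyl-CoA to both arms, had 94.5 and 82.7 TPM in YAP5SA libraries, against 54.2 and 48.9 TPM in YAP5SA-S94A libraries (log2 fold change 0.77, SE 0.12, limma adjusted p = 0.00272). Both rose, with clear gaps between the groups. Acaca, the cytosolic acetyl-CoA carboxylase that makes malonyl-CoA for synthesis, stood at 11.9 and 10.4 TPM in YAP5SA libraries, against 9.54 and 9.85 TPM in YAP5SA-S94A libraries. The groups did not overlap, but the gap was small and not called (log2 fold change 0.18, limma adjusted p = 0.417).

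**Figure D2:**
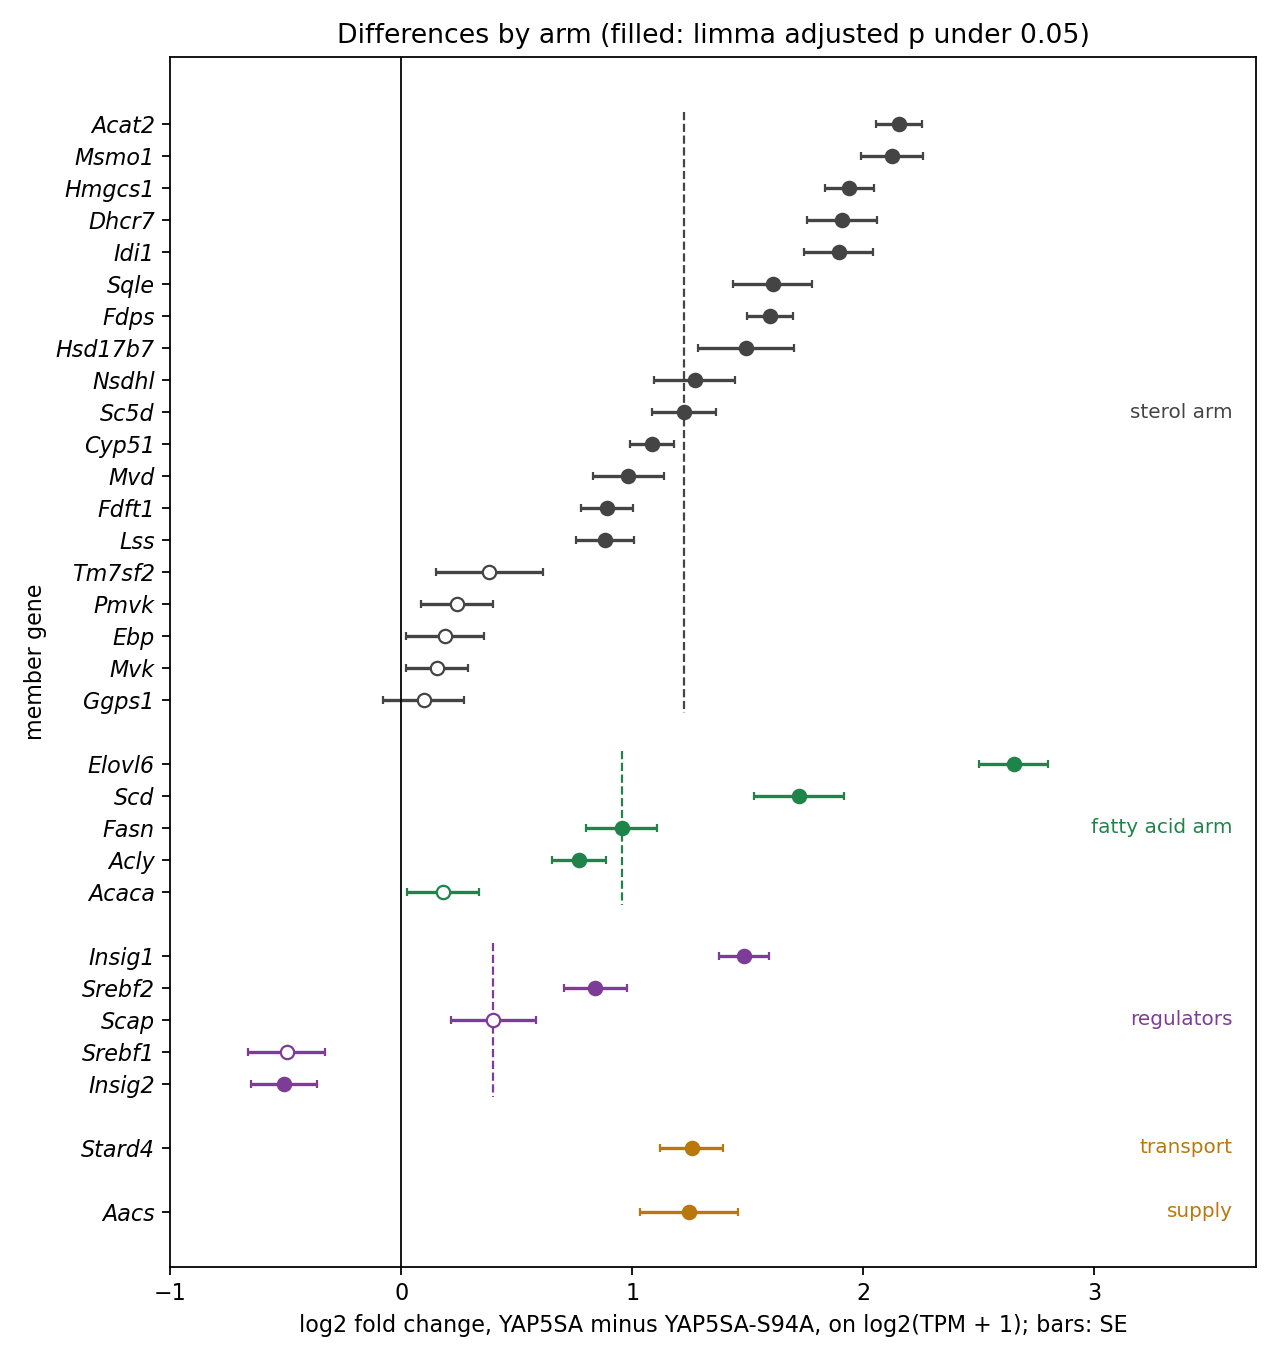
Log2 fold change of each member, YAP5SA minus YAP5SA-S94A on log2(TPM + 1), with SE bars, grouped by arm. Filled points were called and dashed lines mark the medians, 1.22 for the sterol arm, 0.95 for the fatty acid arm and 0.40 for the regulators.

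Among the regulators Srebf2 and Insig1 rose, Insig2 fell, and Srebf1 and Scap were not called. Srebf2 (chromosome 7, 113663202 to 113720850) stood at 39.2 and 33.9 TPM in YAP5SA libraries, against 18.7 and 21.2 TPM in YAP5SA-S94A libraries, and rose (log2 fold change 0.84, SE 0.14, limma adjusted p = 0.00365). Srebf1 (chromosome 10, 45007637 to 45029650) was at 28.0 and 20.9 TPM in YAP5SA libraries, against 36.9 and 32.3 TPM in YAP5SA-S94A libraries. Both YAP5SA libraries were the lower ones, but the difference was not called (log2 fold change −0.50, SE 0.16, limma adjusted p = 0.0563). It was called lower in 6 of the 14 alternative settings, among them a minimum mean TPM of 5 (adjusted p = 0.0497), median-of-ratios (0.0324) and quantile scaling (0.0351), the mitochondrial chromosome left out (0.0239) and YAP5SA replicate 1 left out (0.0159). Over its alternatives the adjusted p ran between 0.00969 and 0.269. Srebf1 overlaps the oppositely oriented Rai1 by 596 bases, and Rai1 was at 14.2 and 11.7 TPM in YAP5SA libraries, against 10.2 and 10.4 TPM in YAP5SA-S94A libraries.

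As a ratio of TPM within a library, Srebf2 over Srebf1 was 1.40 and 1.62 in YAP5SA libraries, against 0.508 and 0.656 in YAP5SA-S94A libraries. Srebf2 was thus the more abundant messenger in both YAP5SA libraries and Srebf1 in both YAP5SA-S94A libraries. The tables give 1 value per gene, so the SREBP1a and SREBP1c transcripts are not told apart.

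The INSIG genes, whose products anchor SCAP in the endoplasmic reticulum, also moved apart. Insig1, itself a known SREBP target (chromosome 4, 7315494 to 7323972), stood at 278 and 277 TPM in YAP5SA libraries, against 107 and 90.5 TPM in YAP5SA-S94A libraries. It rose by 1.48 on the log2 scale (SE 0.11, limma adjusted p = 1.13e-04). Insig2 (chromosome 13, 32472390 to 32500139) was at 15.5 and 13.4 TPM in YAP5SA libraries, against 21.5 and 20.3 TPM in YAP5SA-S94A libraries, and was the only member called lower (log2 fold change −0.51, SE 0.14, limma adjusted p = 0.0321). That call was lost with no filter (adjusted p = 0.0696), without YAP5SA replicate 2 (0.0596) and without YAP5SA-S94A replicate 1 (0.238) or 2 (0.148). The Insig1 over Insig2 ratio of TPM was 17.96 and 20.7 in YAP5SA libraries, against 5.00 and 4.46 in YAP5SA-S94A libraries.

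Scap, the escort, had 44.4 and 31.8 TPM in YAP5SA libraries, against 31.1 and 25.7 TPM in YAP5SA-S94A libraries. The lower YAP5SA library was almost level with the higher YAP5SA-S94A library, and the difference was not called (log2 fold change 0.40, SE 0.18, limma adjusted p = 0.138). It was called higher in 2 of the 14 alternative settings, one of them without YAP5SA replicate 2 (adjusted p = 0.0331), where its log2 fold change was 0.63.

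**Figure D3:**
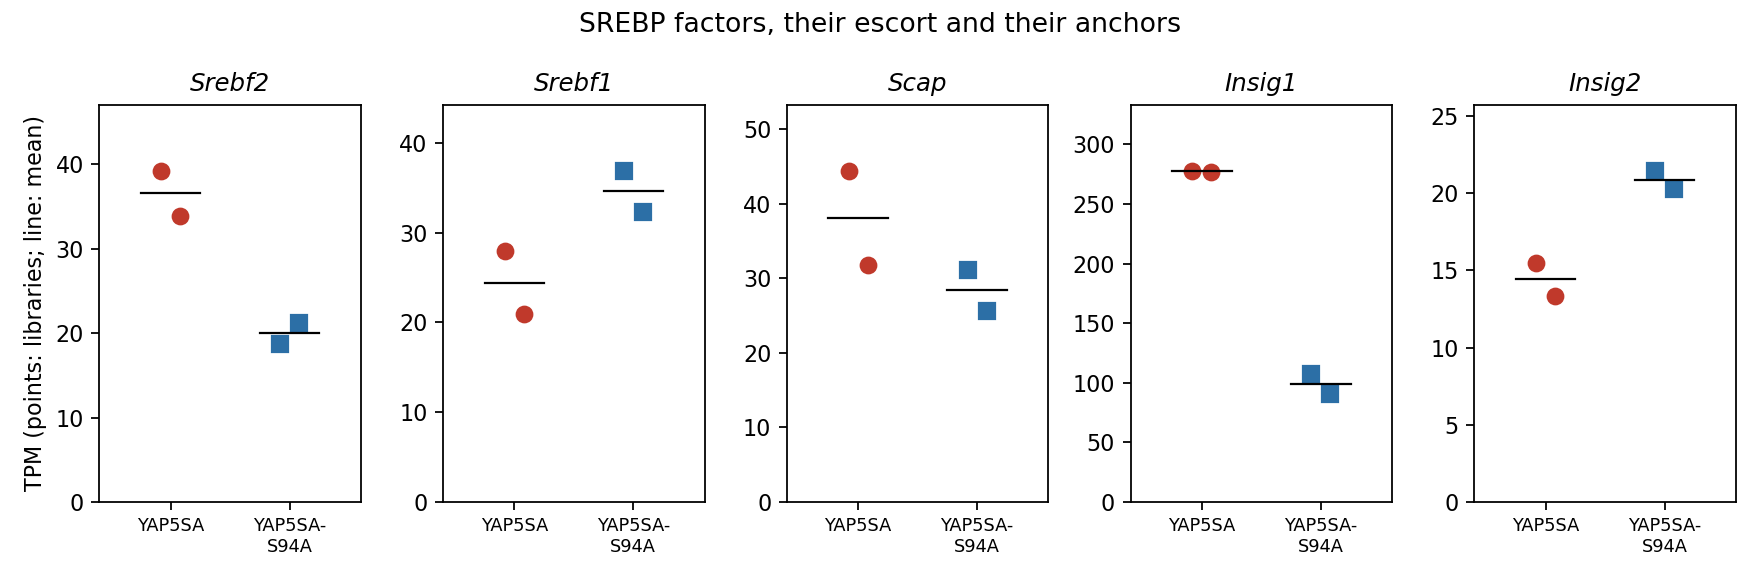
TPM of the 5 regulators in each library, YAP5SA (circles) beside YAP5SA-S94A (squares), with the mean as a line and a separate axis from 0 for each gene. Srebf2 and Insig1 are higher in both YAP5SA libraries, Srebf1 and Insig2 are lower in both, and for Scap 31.8 TPM in a YAP5SA library lies close to 31.1 TPM in a YAP5SA-S94A library.

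Stard4, a carrier that moves cholesterol between membranes, stood at 24.7 and 25.3 TPM in YAP5SA libraries, against 9.51 and 10.3 TPM in YAP5SA-S94A libraries (log2 fold change 1.26, limma adjusted p = 6.34e-04). Aacs, which activates the ketone body acetoacetate for lipid synthesis, was at 29.7 and 19.1 TPM in YAP5SA libraries, against 9.41 and 9.56 TPM in YAP5SA-S94A libraries (log2 fold change 1.24, limma adjusted p = 0.00434). Both rose, and the YAP5SA libraries differed from each other more for Aacs than for Stard4.

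Set side by side, both synthetic arms were higher in YAP5SA. The sterol genes summed to 1646 and 1811 TPM in YAP5SA libraries, against 659 and 639 TPM in YAP5SA-S94A libraries, a 2.66-fold difference of means. The fatty acid genes summed to 209 and 188 TPM in YAP5SA libraries, against 98.3 and 90.0 TPM in YAP5SA-S94A libraries, or 2.11-fold. For the regulators the sums were 405 and 377 TPM in YAP5SA libraries, against 216 and 189.9 TPM in YAP5SA-S94A libraries. Insig1 made up most of the sum in both YAP5SA libraries, but not in either YAP5SA-S94A library. The groups did not overlap in any of the 3 sums.

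By medians the order was sterol arm, fatty acid arm, regulators, at 1.22, 0.95 and 0.40 on the log2 scale, and these arms were compared as a description with no test. The fatty acid arm came first without YAP5SA replicate 2, at 1.14 where the sterol arm was at 1.11. The regulators' median, which rests on Scap, was 0.16 without YAP5SA replicate 1, 0.63 without YAP5SA replicate 2 and 0.26 without YAP5SA-S94A replicate 2. Between the YAP5SA libraries, 11 of 19 sterol genes were higher in replicate 2, at up to 1.40-fold. So were 2 of 5 fatty acid genes and 0 of 5 regulators. Between the YAP5SA-S94A libraries, 10 of 19 sterol genes, 1 of 5 fatty acid genes and 1 of 5 regulators were higher in replicate 2.

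**Figure D4:**
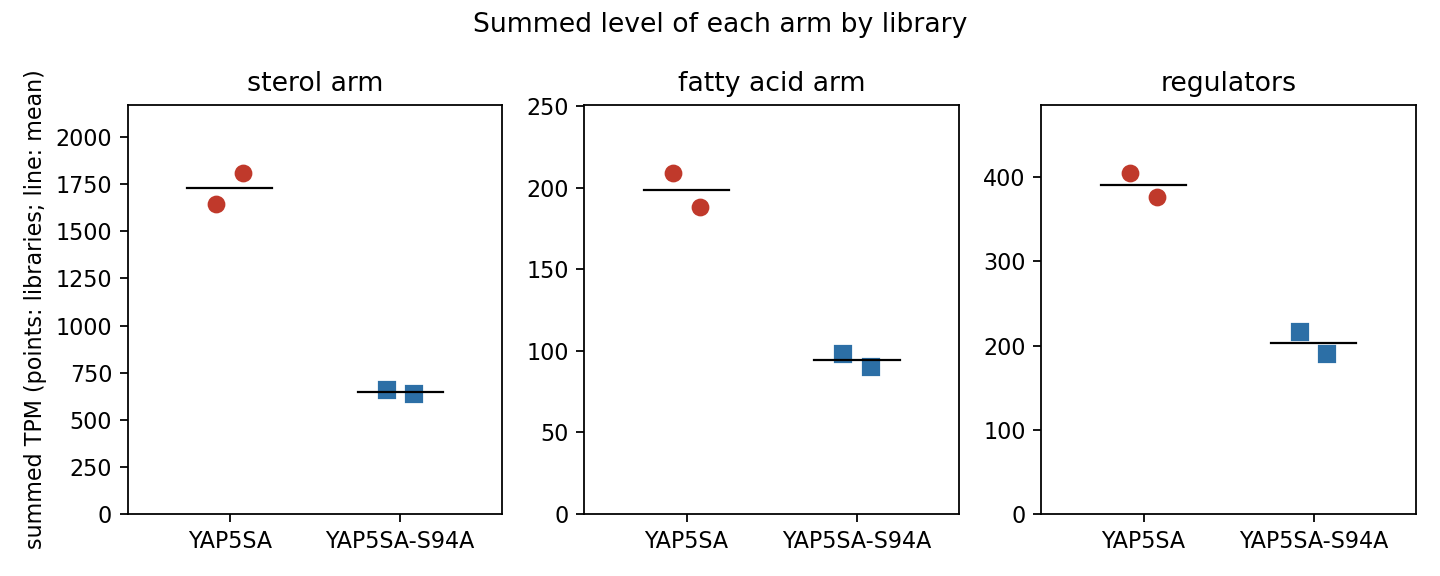
Summed TPM of the sterol arm, the fatty acid arm and the regulators in each library, YAP5SA (circles) beside YAP5SA-S94A (squares), with the mean as a line and axes from 0. The sterol arm stands at 1646 and 1811 TPM in YAP5SA and 659 and 639 TPM in YAP5SA-S94A.

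Genes next to the members in lipid metabolism moved in both directions. Among 13 tested genes of sterol uptake, storage and export 3 rose and 3 fell (23.1% each). Over all tested genes 17.4% rose and 15.5% fell, so these shares were not far from those of all genes. The list's median was −0.26 on the log2 scale. The 3 that fell handle export. Abca1, which loads cholesterol on apolipoprotein A-I, was at 24.0 and 21.2 TPM in YAP5SA libraries, against 56.3 and 61.2 TPM in YAP5SA-S94A libraries (limma adjusted p = 3.00e-04). Abcg1, the partner transporter, had 25.2 and 17.8 TPM in YAP5SA libraries, against 64.3 and 59.3 TPM in YAP5SA-S94A libraries. Apoe, an apolipoprotein, stood at 267 and 175 TPM in YAP5SA libraries, against 437 and 369 TPM in YAP5SA-S94A libraries. All of them are also expressed by macrophages. Summed leukocyte markers were at 537 and 518 TPM in YAP5SA libraries, against 813 and 812 TPM in YAP5SA-S94A libraries. Of 5 tested markers 1 was higher and 2 were lower. Most of the sum was Lyz2, at 438 and 428 TPM in YAP5SA libraries, against 714 and 710 TPM in YAP5SA-S94A libraries. The higher one was Csf1r, at 38.2 and 37.5 TPM in YAP5SA libraries, against 14.6 and 12.9 TPM in YAP5SA-S94A libraries. The part of leukocytes in this result was not tested. Among the 3 that rose were Scarb1 and Soat1, named after their values were seen.

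Of 9 further sterol genes 5 rose (55.6%) and 1 fell (11.1%), where 17.4% and 15.5% of all tested genes did, and the median was 0.71. Tmem97, a sterol-responsive membrane protein, stood at 51.8 and 50.1 TPM in YAP5SA libraries, against 22.5 and 24.6 TPM in YAP5SA-S94A libraries. The gene that fell was Cyp27a1, a mitochondrial oxysterol-forming enzyme, at 16.4 and 12.1 TPM in YAP5SA libraries, against 40.9 and 36.7 TPM in YAP5SA-S94A libraries. Lbr, the sterol reductase that shares its step with Tm7sf2, also rose (log2 fold change 0.71) and was named after its value was seen.

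Of 18 genes of the machinery that carries, cleaves and degrades SREBPs, 4 rose (22.2%) and 1 fell (5.56%), where 17.4% and 15.5% of all tested genes did, and the median was −0.0042. The protease genes Mbtps1 and Mbtps2, named after their values were seen, had log2 fold changes of −0.11 and −0.28 (limma adjusted p = 0.560 and 0.328). Fbxw7, the ubiquitin ligase subunit that marks nuclear SREBP for degradation, rose to 44.0 and 42.4 TPM in YAP5SA libraries, against 18.2 and 20.9 TPM in YAP5SA-S94A libraries. The vesicle coat gene Sec23b rose by 0.71 on the log2 scale, and Erlin1, an endoplasmic reticulum membrane protein, fell by 0.58. Rnf145 and Sec24b, named after their values were seen, rose by 0.43 each.

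Genes that use farnesyl and geranylgeranyl units for prenylation, dolichol and ubiquinone also gave few calls, with 1 of 13 higher, 1 lower and a median of 0.048. Pdss1, which builds the ubiquinone side chain, was at 10.1 and 8.96 TPM in YAP5SA libraries, against 4.22 and 3.82 TPM in YAP5SA-S94A libraries. Dhdds, of dolichol synthesis, stood at 53.0 and 52.1 TPM in YAP5SA libraries, against 82.5 and 74.9 TPM in YAP5SA-S94A libraries. These shares, 7.69% in each direction, lay below the 17.4% and 15.5% of all tested genes.

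Of 18 tested genes for fatty acid supply, elongation and desaturation 7 rose (38.9%) and 1 fell (5.56%), with a median of 0.22. Over all tested genes 17.4% rose and 15.5% fell. Fads3, a member of the front-end desaturase family, reached 403 and 326 TPM in YAP5SA libraries, against 42.1 and 40.0 TPM in YAP5SA-S94A libraries (log2 fold change 3.11, limma adjusted p = 1.92e-05). Fads1, a desaturase of polyunsaturated fatty acids, was at 81.6 and 79.2 TPM in YAP5SA libraries, against 33.4 and 36.0 TPM in YAP5SA-S94A libraries. The other direction was taken by Acacb, the mitochondrial carboxylase whose malonyl-CoA restrains fatty acid oxidation, at 15.5 and 12.4 TPM in YAP5SA libraries, against 65.5 and 63.8 TPM in YAP5SA-S94A libraries. The Acaca over Acacb ratio of TPM was 0.768 and 0.836 in YAP5SA libraries, against 0.146 and 0.154 in YAP5SA-S94A libraries.

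Genes of glycerolipid assembly and lipid droplets leaned the other way, with 1 of 12 tested genes higher (8.33%), 5 lower (41.7%) and a median of −0.37. Over all tested genes 17.4% rose and 15.5% fell. Cidea, a lipid droplet protein, was at 60.0 and 57.2 TPM in YAP5SA libraries, against 198 and 207 TPM in YAP5SA-S94A libraries. Lpin1, a phosphatidate phosphatase, had 12.8 and 9.77 TPM in YAP5SA libraries, against 33.9 and 35.1 TPM in YAP5SA-S94A libraries. Dgat2, of the last step of triglyceride synthesis, was the gene that rose, at 17.9 and 15.0 TPM in YAP5SA libraries, against 3.71 and 5.59 TPM in YAP5SA-S94A libraries. Gpam, Pnpla2 and Plin2, named after their values were seen, fell by 0.78, 0.57 and 0.52 on the log2 scale.

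**Figure D5:**
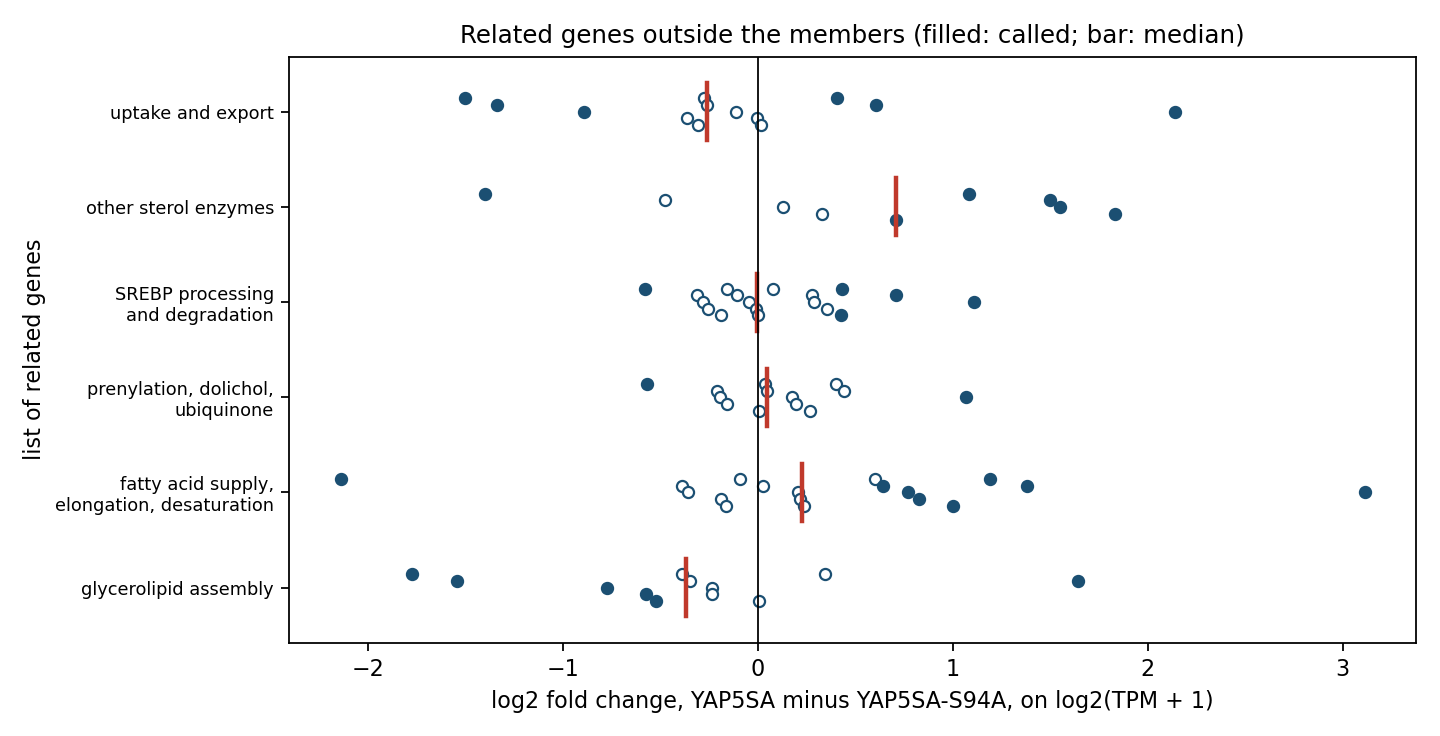
Log2 fold changes of the tested genes in 6 lists of related lipid genes, YAP5SA minus YAP5SA-S94A on log2(TPM + 1), with filled points for called genes and a bar at each list's median. The medians run between −0.37 for glycerolipid assembly and 0.71 for the other sterol enzymes.

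Markers of the cell types in such cultures were read in the same libraries. The counts called among them stand beside the 17.4% of all tested genes that rose and the 15.5% that fell. Cardiomyocyte markers were present throughout, with summed levels of 8725 and 8986 TPM in YAP5SA libraries, against 14189 and 14287 TPM in YAP5SA-S94A libraries, and 5 of 6 were lower. Those 5 ran between 0.30-fold for Myh6 and 0.75-fold for Tnnt2. Actn2, which was not called, was at 851 and 737 TPM in YAP5SA libraries, against 651 and 652 TPM in YAP5SA-S94A libraries. In bulk RNA, fewer cells of a type and less RNA per cell cannot be told apart. Fibroblast markers summed to 6439 and 5005 TPM in YAP5SA libraries, against 5298 and 4969 TPM in YAP5SA-S94A libraries, with 2 of 7 lower. Epicardial markers were at 49.4 and 42.8 TPM in YAP5SA libraries, against 33.0 and 29.0 TPM in YAP5SA-S94A libraries, with 2 of 4 higher. The difference in that sum lay in Upk3b, at 22.4 and 18.2 TPM in YAP5SA libraries, against 0.611 and 0.544 TPM in YAP5SA-S94A libraries. Msln also rose, while Wt1 and Upk1b had log2 fold changes of −0.20 and −0.37 and were not called. Endothelial markers were at 16.4 and 15.5 TPM in YAP5SA libraries, against 34.7 TPM in each YAP5SA-S94A library, with 1 of 5 lower. The lower one was Kdr, at 3.97 and 3.33 TPM in YAP5SA libraries, against 21.3 and 19.9 TPM in YAP5SA-S94A libraries. Kdr made up most of the difference in the sum. The log2 fold changes of the other endothelial markers ran between −0.52 and −0.06. Of 5 smooth muscle and pericyte markers and 1 tested Schwann cell marker 0 were called. The 5 adipocyte markers summed to 96.5 and 94.8 TPM in YAP5SA libraries, against 151 and 158 TPM in YAP5SA-S94A libraries, with 1 higher and 1 lower. Of these, Adipoq, Plin1 and Cidec were listed at 0 in all 4 libraries. Lep was at 3.55 and 3.06 TPM in YAP5SA libraries and listed at 0 in both YAP5SA-S94A libraries, and rose (limma adjusted p = 0.00108). Fabp4 was at 93.0 and 91.8 TPM in YAP5SA libraries, against 151 and 158 TPM in YAP5SA-S94A libraries, and fell (limma adjusted p = 0.00121). The part of the other cell types in the results above was not tested.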

How the data were processed

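Per the submitters' processing notes, the tools include fastp, HISAT2 2.2.1 and StringTie 2.2.1, with the rat build rn7 and no settings, and per the labels' protocols the libraries were directional and from poly(A) RNA. The deposited TPM and FPKM values were computed by the authors. The deposited Coverage column, a per-base signal not scaled for depth, was used only for depth, as its highest ratio to FPKM in each table.

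TPM was summed over the entries of a gene name. Names with a mean TPM of at least 1 (13420) entered a limma 3.58.1 fit (R 4.3.3) of log2(TPM + 1) by group, with moderated statistics and an intensity trend. It had 2 residual degrees of freedom and 5.09 prior ones. Benjamini-Hochberg adjustment ran over all of them. Python 3.11.15 was used for tables (pandas 2.3.3, numpy 2.4.6) and for plots (matplotlib 3.10.9). Promoters are RefSeq's (GRCr8, matched by symbol for 24 of 31 members); coordinates in rn7 are those of the deposited tables, and those in GRCr8 go with the sequences only.

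The members, arms, related lists and marker lists were chosen with earlier results of these data known. Each called member and each regulator is given in every library, with SE and adjusted p for the regulators and the 4 called members of each arm with the largest change. From each related list up to 3 called genes with the smallest p are named. Some genes of those lists are not reported here by name. The alternatives were another pseudocount, filters, units, scalings and variance model, the replicate number as a block, the highest entry of a shared name, and each library left out.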

Additional observations from a re-analysis of the deposited data

How the results depend on the processing

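The 22 members called higher were called higher in all 14 settings, and with the replicate block and without YAP5SA replicate 2 Scap joined them, for 23. The count called lower, 1 as reported, was 2 with a minimum mean TPM of 5, under median-of-ratios or quantile scaling, without the mitochondrial chromosome and with the replicate block, and 0 with no filter. It ran between 0 and 2 when libraries were left out in turn. The count over all genes stayed within 1.5 times 4420 in every setting, but 1312 and 1314 genes were called lower without YAP5SA-S94A replicates 1 and 2, where 2083 were as reported. The fatty acid arm's median was 0.954 as reported, 0.7635 to 1.1445 without a library and 1.0991 with Aacs. For the regulators it was 0.3989, with 0.1638 to 0.634 without a library and 0.6193 with Stard4. Ggps1, not called, reversed to −0.1116 without YAP5SA replicate 2, and its highest value without a library was 0.3075. A library left out leaves its group with 1 sample, which is assumed to vary like the others. The replicate numbers are shared by name only. Same-numbered deviations correlated at r = 0.101 across 13420 genes, and with the replicate block 5319 genes were called, among them Srebf1 as lower (limma adjusted p = 0.00969) and Scap as higher (limma adjusted p = 0.0286). The median of all genes was farthest from 0 without the mitochondrial chromosome, at −0.0662. Depth limits most the members with the lowest levels, Hsd17b7, Elovl6 and Scd, in YAP5SA-S94A libraries. With a pseudocount of 0.1 the log2 fold change of Elovl6 was 2.88.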
